A study of Oryza longistaminata with 15 samples.

Results

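The rhizome internode (RI), the stem segment between 2 nodes of an underground rhizome, was set against the young leaf (YL) of the perennial wild rice Oryza longistaminata. The comparison used the 3 RI arrays and the 3 YL arrays, 6 of the 15 arrays of the series, over all 57194 probe sets for rice transcripts on the Affymetrix rice array. RI and YL samples were both untreated wild-type material of 1 accession from Niger, grown in a greenhouse and collected at active tillering. The remaining arrays held the shoot internode (SI) and the rhizome tip (RT) and shoot tip (ST), as labelled, 3 each. The arrays of a tissue are labelled as biological replicates, and the methods describe these replicates as independent. The methods also describe the accession as kept as a single plant, so the replicates may be samples of 1 genotype. The p-values and standard errors measure only the spread between replicate samples of this series, pooled over the tissues of all 15 arrays. The array was designed from cultivated rice, so the match to wild rice transcripts varies between probe sets, and levels are compared here within a probe set only.

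A rhizome is a stem that grows horizontally below ground, stores carbohydrate and lets the plant spread and regrow. A young leaf blade holds chloroplasts, which capture light, fix carbon dioxide in the Calvin cycle and export sucrose to tissues that cannot. Stems share their basic plan of vascular strands and ground tissue above and below ground, and growth from meristems depends on homeobox genes of the KNOX class, which are switched off in the leaves of many plants. As these were whole tissues, fewer cells of a type and less RNA per cell cannot be told apart.

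Signals are globally scaled array intensities in arbitrary units. A signal of 49.6, the 95th percentile of 64 reporter control probe sets, served as the detection cutoff, and a tissue was taken to express a probe set when all 3 of its arrays exceeded it. The 21303 probe sets expressed in at least 1 of the 5 tissues were tested, and the other 35891 were not. A probe set was called when its adjusted p was under 0.05 and RI and YL differed over 2-fold. Log2 differences are RI minus YL and are followed by ± the standard error of the fit with 3 arrays per tissue. Where all arrays of 1 tissue lay at or under the cutoff, the fold is given as a bound, at least N-fold, with the dim tissue set to the cutoff. A fitted log2 difference printed beside a bound rests on signals under the cutoff, is not itself a bound and gives no rank among such genes.

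The RI arrays were less alike than the YL arrays. Across 10935 probe sets, log2 signals of the first and second RI arrays (RI1 and RI2) correlated at 0.821, against 0.946 for RI1 with RI3 and 0.929 for RI2 with RI3, while YL pairs lay at 0.933 to 0.946 and pairs of 1 RI and 1 YL array at 0.613 to 0.707. Pairs of 1 RI and 1 SI array ran from 0.787 (RI2 with SI1) to 0.937 (RI2 with SI3). RI2 thus correlated more with SI3 than with either other RI array. Single arrays stood over 4-fold below both of their replicates at 448 probe sets in RI1 and 291 in RI2, but at 6 in RI3. Among 1421 probe sets where RI1 and RI2 differed over 4-fold and the brighter exceeded 4 times the cutoff, RI3 lay between them in 1359 (95.6%), at a median of 0.423 of the linear distance from RI1 to RI2. The corresponding share for the other 14 arrays was 8.85% to 88.8%. Among YL arrays, YL2 exceeded both of its replicates over 4-fold at 241 probe sets, 133 of which were among those called higher in RI. Where leaving out 1 array ended the call of a named gene, that array is named beside it.

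Differences between RI and YL ran in both directions across the genome, and many of the fitted differences were large. Of 21303 probe sets, 7980 (37.5%) were called, 3510 higher in RI (16.5%) and 4470 lower in RI (21.0%). The median difference over all tested probe sets was -0.0056. Fitted differences over 4-fold were found at 1908 probe sets higher and 2204 lower in RI. Those over 32-fold numbered 240 and 239, and those over 128-fold 20 and 49. These size classes include genes dim in 1 tissue, whose fitted differences rest on signals under the cutoff and are not bounds. LOC4338719, for example, was fitted at 949.9-fold higher in RI with a bound of at least 26.2-fold. RI expressed 15578 probe sets and YL 15884, with 12798 in common. Of the 2780 expressed in RI and not in YL, 1747 were called higher, and of the 3086 expressed in YL and not in RI, 2012 were called lower. All 3 RI arrays exceeded all 3 YL arrays at 26.5% of tested probe sets and fell under all of them at 31.4%. Leaving out RI3 gave 2896 called higher and 4184 lower.

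**Figure D1:**
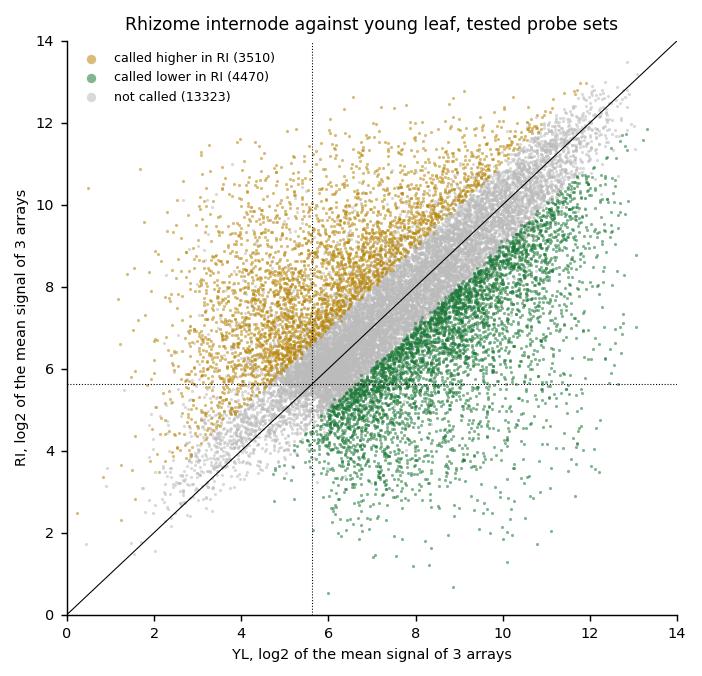
Mean signal in RI (vertical, log2 scale) against mean signal in YL (horizontal, log2 scale) for the 21303 tested probe sets, with called probe sets coloured by direction and the detection cutoff of 49.6 as dotted lines. The 3510 called higher in RI lie above the diagonal and the 4470 called lower lie below it, with a band along each axis that is bright in 1 tissue and under the cutoff in the other.

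Gene descriptions came from the platform annotation and from lists that the study drew up on these same arrays for genes enriched in a tissue. Of 57194 rice probe sets, 22436 had 1 gene symbol and 2663 had a description from those lists, with 584 more described through a shared gene. A gene group made of listed genes leans towards the direction of its list, so its count is not independent evidence of direction. For the main groups the count of members outside the YL and RI lists is therefore given, although these too were mostly listed for another tissue. Medians are also given with genes that were dim in 1 tissue set to their bound, where this moved them.

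Genes of the light reactions were lower in RI than in YL almost without exception. The light reactions use chlorophyll-protein complexes to split water and pass electrons through carriers to NADP. Of 57 tested probe sets (42 genes) for photosystem and light-harvesting proteins, 53 were called lower and none higher in RI, against 21.0% lower among all tested, with a median of -4.12 (-3.96 with dim genes at their bound). Of these 57, 40 stood on the YL list, and the remaining 17 held 14 called lower. All 14 probe sets of electron carriers and the chloroplast ATP synthase were called lower, with a median of -4.19, including the 4 outside the YL list.

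Photosystem I subunit VI (Os05g48630) had signals of 16.4, 18.4 and 14.6 on the RI arrays, against 4097, 4724 and 4335 on the YL arrays. Every RI array was under the cutoff, and RI was lower by at least 88.3-fold (log2 difference -8.06 ± 0.21, adjusted p = 4.84e-10). Os03g39610, which codes for an antenna protein that binds chlorophylls a and b, read 39.4, 68.6 and 39.4 in RI and 5653, 7046 and 6570.4 in YL. Plastocyanin (Os06g01210), the copper protein that carries electrons to photosystem I, differed less between the tissues, with 1198, 888 and 1322, against 5416, 5516 and 5300.5 in YL (difference -2.27 ± 0.21). The arrays of the tissues did not overlap for any of these genes.

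PGR5 (Os08g45190), a protein known from Arabidopsis for cyclic electron flow around photosystem I, and OSH1 (Os03g51690), a class I KNOX homeobox gene of rice meristems, differed in opposite directions and were both amplified by the study with designed primers. These primers are shown as the study's own definition of the amplified transcripts, and they were not aligned to the probe sets here. They are written 5′ to 3′ in lower case.
PGR5 forward, chromosome 8: agggctctcccgacgtggtcc
PGR5 reverse, chromosome 8: gtgcagcgcgatggcctttcc
OSH1 forward, chromosome 3: gaggaggaccaagaaggtagcgg
OSH1 reverse, chromosome 3: caccagttgaggagctgttgacgag

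The PGR5 probe set read 30.6, 36.5 and 27.2 in RI and 2843, 3756 and 3359 in YL, so RI was lower by at least 66.5-fold (-6.72 ± 0.29, adjusted p = 1.1e-08). No RI array reached the cutoff. Its signal averaged 686 ± 186 in SI (SD, n = 3), so the internodes above and below ground did not share the low level, a difference that was not tested.

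OSH1 showed the reverse, with 1084, 780.0 and 973 in RI, against 11.1, 8.64 and 5.2 in YL on 1 probe set (6.88 ± 0.27, adjusted p = 6.72e-09, at least 18.9-fold higher in RI). The second OSH1 probe set read 383, 306 and 373 in RI and 1.12, 3.52 and 4.06 in YL. All YL arrays were far under the cutoff on both. OSH1 averaged 833 ± 186 in SI, 1212 ± 196 in RT and 1854 ± 153 in ST, so YL was the only tissue of the 5 with every array under the cutoff. Both members annotated as knotted-1-like 3, which is a KNOX group expressed in leaves as well, were lower in RI. Os06g43860 had 390.3, 268 and 375 in RI, against 2343, 2514 and 2017 in YL (-2.75 ± 0.28), and Os08g19650 differed by -1.42 ± 0.39.

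Carbon fixation genes showed the largest median difference among the gene groups of photosynthesis. Of 24 tested Calvin cycle probe sets (16 genes), 23 were called lower in RI and none higher, with a median of -5.99 (-5.81 at the bound), and 5 of the 6 outside the YL list were among them. Phosphoribulokinase (Os02g47020), which makes the acceptor of carbon dioxide, read 11.9, 7.91 and 15.2 in RI, against 3919, 5230.2 and 4146 in YL, and was at least 88.6-fold lower (-8.61 ± 0.26, adjusted p = 9.86e-10). The A subunit of chloroplast glyceraldehyde-3-phosphate dehydrogenase (Os04g38600) read 9.58, 16.2 and 11.5 in RI and 3142, 5518 and 3751 in YL. CP12 (Os01g19740), a small protein that binds both of these enzymes, read 7.97, 3.09 and 4.36 in RI and 1482, 1749.9 and 1161 in YL. All 3 genes were under the cutoff on every RI array.

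The small subunit of ribulose bisphosphate carboxylase was taken as a leaf marker. All of its tested probe sets were called lower in RI. As most of them stood on the YL list, drawn up on these same arrays, this was not an independent check of the leaf label. Of those for Os12g17600, 1 read 8.81, 6.64 and 6.17 in RI and 1232, 2199.5 and 1559 in YL, and the other 155, 64.1 and 167 in RI and 7166, 9828 and 8683 in YL. Os12g19470, which was not on the YL list, read 27.2, 217 and 103 in RI, against 5106, 8758 and 6643 in YL. It averaged 4015 ± 934 in SI (SD, n = 3), so it was high in the shoot internode too. The leaf marker was thus high in YL and low in RI, though above the cutoff on at least 1 RI array for most of its probe sets. The probe sets annotated as the large subunit disagreed in size. That of Os01g58020 read 73.6, 37.01 and 51.8 in RI and 1109.7, 1030.3 and 1018 in YL, and that of Os05g35330 read 4386, 3019 and 3649 in RI and 9707, 10542 and 10178 in YL, a call lost without RI2. Transketolase (Os06g04270) gave probe sets that disagreed, 1 called lower in RI (-1.24 ± 0.19) and 1 not called (1.18 ± 0.71), so its direction is uncertain. No annotated probe set was found for secondary wall cellulose synthases or for root markers, so the RI label was not checked against those.

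Photorespiration, which salvages the product of oxygenation by the same carboxylase, ran lower in RI for all 7 tested probe sets (median -2.55), of which 5 were on the YL list. The H protein of glycine decarboxylase (Os10g37180) had 13.8, 11.2 and 8.84 in RI and 1549.5, 4691 and 2429 in YL, at least 52.5-fold lower in RI. The pathway's peroxisomal and mitochondrial steps varied widely in size. Serine-glyoxylate aminotransferase (Os08g39300) differed by -5.73 ± 0.67, whereas the probe sets of serine hydroxymethyltransferase, Os12g22030 and Os03g52840, differed by -1.45 ± 0.30 and -1.17 ± 0.20.

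Catalases, which break down the hydrogen peroxide of peroxisomes, split by gene. Catalase-1 (Os03g03910) read 6, 16.96 and 10.5 in RI, against 4714, 4970.1 and 4551 in YL, at least 95.6-fold lower (-8.86 ± 0.89, adjusted p = 8.18e-06). Catalase isozyme A (Os02g02400) was bright in both tissues, with 3392, 4024 and 3658 in RI and 3261, 3015 and 4340.2 in YL, and its arrays overlapped. Its 3 probe sets differed by 0.0076 ± 0.70, 0.075 ± 0.63 and 0.19 ± 0.59 and none was called. The difference between the catalase genes was not itself tested. Both PEX11 genes, whose products act in peroxisome proliferation, were lower in RI. Os03g02590 read 22.2, 15 and 29.2 in RI and 3261, 3450.1 and 3387 in YL, and Os04g45210 was at least 21.8-fold lower in RI.

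Nitrogen assimilation in the chloroplast was low in RI as well, with 6 of 7 probe sets called lower and none higher (median -4.51, 3 of the 7 outside the YL list and 2 of those called). Plastid glutamine synthetase (Os04g56400), which captures ammonium, read 20.1, 15.5 and 17.9 in RI and 1994, 4785 and 3219 in YL. Ferredoxin-dependent glutamate synthase (Os07g46460), the next enzyme, read 86.3, 67.2 and 68.1 in RI, against 1393, 2086 and 2009 in YL (-4.62 ± 0.38).

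Chlorophyll synthesis and the expression machinery of the plastid had smaller medians in the same direction. Of 13 chlorophyll biosynthesis probe sets, 11 were called lower in RI (median -2.37), and the 2 outside the YL list were not called. Protochlorophyllide reductase B (Os10g35370), the light-dependent step, read 478, 264 and 295 in RI and 3552, 3625 and 2615 in YL. The reductase A gene (Os04g58200) read 349.7, 196 and 275 in RI and 259, 779 and 150.2 in YL, with overlapping arrays (-0.23 ± 0.48, adjusted p = 0.714). Magnesium chelatase (Os07g46310) was uncertain, since 1 probe set was called lower (-5.12 ± 0.46) and a second was not called (0.51 ± 0.49).

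Of 31 plastid ribosomal protein probe sets, 30 were called lower in RI (median -1.99), 29 of the 31 being on the YL list. Ribosomal protein L12-1 (Os05g49320) read 30.6, 12.6 and 29.6 in RI, against 2220.5, 2169 and 2131 in YL. Pentatricopeptide repeat proteins, which process RNA in chloroplasts and mitochondria, had 37 of 42 probe sets called lower and none higher (median -2.65, or -2.23 at the bound). The 7 of them outside the YL list held 3 called lower, with a median of -0.76.

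Light receptors and clock genes were lower in RI for 7 of 8 probe sets (median -2.16), all 7 from the YL list. Cryptochrome 1 (Os04g37920), a blue light receptor, read 473, 139.9 and 416 in RI and 2726, 2794 and 2972 in YL (-3.23 ± 0.40), with RI2 the lowest array. A gene annotated as EARLY FLOWERING 4 (Os03g29680), a part of the evening complex in Arabidopsis, read 47.7, 56.05 and 68.7 in RI and 400.1, 253 and 333 in YL. The second such gene (Os11g40610) overlapped between tissues, with 206, 426 and 349 in RI and 550.3, 393 and 235 in YL, and was not called. Collection times of day were not given in the sources used here.

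**Figure D2:**
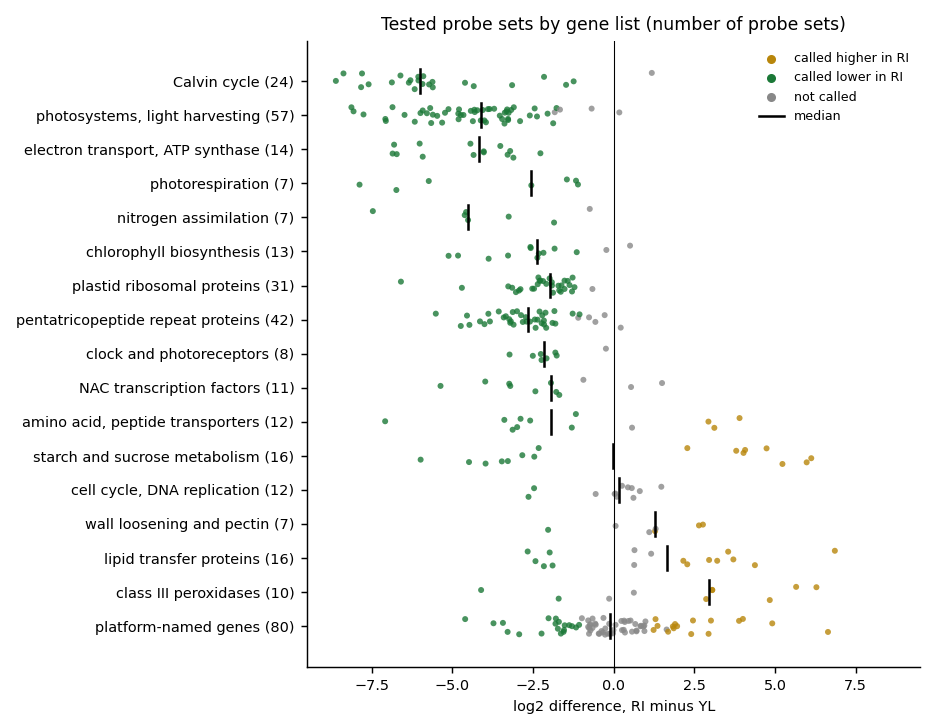
Log2 difference RI minus YL of each tested probe set (points) in 17 gene groups, with the group median as a bar and 0 meaning equal signals. Points of the photosynthesis groups lie almost wholly below 0, whereas starch and sucrose metabolism, peroxidases and lipid transfer proteins spread to both sides.

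Starch and sucrose metabolism divided by enzyme, with 8 of 16 probe sets called higher in RI and 8 lower (11 genes, median -0.023, or 0.15 at the bound). Over all tested probe sets, 16.5% were called higher and 21.0% lower. Of the 8 called higher, 6 were probe sets of 1 gene, granule-bound starch synthase 1, so the counts and median lean on that gene. The 8 called lower each came from a different gene. Genes that rose included some annotated for starch synthesis. The amylose-forming enzyme granule-bound starch synthase 1 (Os06g04200) rose on all of its 6 tested probe sets, from at least 2.02-fold on a probe set under the cutoff in YL to a log2 difference of 6.12 ± 0.34. The probe set with the largest difference read 6182, 6091 and 6772 in RI, against 92.4, 124 and 66.6 in YL (adjusted p = 6.94e-08). A gene annotated as the isoamylase-type starch debranching enzyme ISO2 (Os05g32710) read 1012, 672 and 666 in RI and 34.5, 97.4 and 31.6 in YL (4.02 ± 0.40). A glucose-6-phosphate translocator (Os07g33910), which brings hexose phosphate into plastids, read 2969, 4752 and 3741 in RI and 769, 1891 and 317 in YL (2.28 ± 0.50), with YL2 the highest leaf array.

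The genes of this group that fell in RI included sucrose-phosphate synthase (Os01g69030), the enzyme of sucrose synthesis in leaves, with 18.5, 29.5 and 22.4 in RI and 1285, 1824 and 1316 in YL (at least 29.4-fold lower). A subunit of glucose-1-phosphate adenylyltransferase (Os03g52460), the first committed step of starch synthesis, read 106, 249 and 203 in RI, against 2717, 3397 and 2241 in YL. So a gene of starch synthesis stood among the genes lower in RI too. Outside this group, AGPS2, named in the platform annotation for a subunit of the same enzyme, was not called. It read 2318, 1048 and 1736 in RI and 640, 1433 and 1059 in YL (0.71 ± 0.39, adjusted p = 0.156). Of 4 invertase genes, which split sucrose, all were lower in RI, the insoluble isoform Os01g73580 with 17.2, 13.8 and 13.2 in RI and 253, 334 and 414 in YL. Both sugar transporters with a description were lower, a member of the MtN3 family (Os05g35140) at -3.52 ± 0.32 and a hexose cotransporter (Os09g0416200) at least 4.22-fold lower. The 8 starch and sucrose probe sets lower in RI were all on the YL list.

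Of the 10 genes with the largest fitted increases in RI, 7 were known by a locus number alone. LOC4338719 read 943, 1939 and 1205 in RI and 1.01, 1.42 and 1.79 in YL, at least 26.2-fold higher (9.89 ± 1.91, adjusted p = 0.00111). LOC4329582 read 2724, 2642 and 3020.4 in RI, against 9.94, 12.5 and 6.5 in YL. A BURP domain protein (Os10g26940), of a plant-specific family, read 2299.7, 3866 and 3107 in RI and 6.56, 17.4 and 23.3 in YL (at least 60.95-fold higher, 7.77 ± 0.93). An AP2 domain transcription factor (Os05g29810) read 2395, 1583 and 1830.2 in RI and 19.1, 9.54 and 6.86 in YL (at least 38.5-fold higher, 7.47 ± 0.81). YL was under the cutoff on every array for these 4 genes.

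Class III peroxidases, secreted enzymes that oxidise wall phenolics, had 6 of 10 probe sets called higher in RI and 2 lower, against 16.5% and 21.0% over all tested. The median was 2.96, or 2.41 at the bound, and the 7 outside the lists of both tissues held 5 of the 6 called higher. Peroxidase 72 (Os01g15830) was at least 19.2-fold higher in RI, but its RI arrays ran unevenly at 171, 3004 and 1671, against 12.2, 12.6 and 12.04 in YL. Peroxidase 21 (Os07g49360) was even across replicates, with 1098, 831 and 1334 in RI and 169, 164 and 114 in YL (2.86 ± 0.36). A peroxidase 1 gene (Os01g0327400) read 2899.6, 1573 and 2504 in RI and 153, 1429 and 91.6 in YL, where YL2 came near the RI arrays.

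Lipid transfer proteins, small secreted proteins of walls and cuticles, had 8 of 16 probe sets called higher in RI and 5 lower (31.2%). The shares over all tested probe sets were 16.5% and 21.0%. The group median was 1.66, or 0.64 at the bound. All 5 lower ones came from the YL list and 7 of the 8 higher ones from neither list. Os05g47700 read 3803, 2649.5 and 4145 in RI and 24.9, 52.97 and 20.7 in YL (6.85 ± 0.33, adjusted p = 2.31e-08). Lipid transfer protein 4 (Os11g02350) read 184, 5046 and 3235 in RI and 56.8, 99.3 and 59.8 in YL (4.37 ± 1.31), and its call was lost without RI2 or without RI3. In the opposite direction, Os12g02330 read 673, 1514 and 1019 in RI, against 5116, 6149.6 and 5109.6 in YL.

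Genes of wall loosening and pectin gave 3 called higher and 1 lower of 7, against 16.5% and 21.0% over all tested probe sets. Of the 3 higher, 1 was outside both lists, and the lower one was on the YL list. Outside this group, a xyloglucan endotransglycosylase (Os06g0696400), which cuts and rejoins wall xyloglucan, was among the 10 largest fitted increases, at 189.9, 4449 and 2845 in RI and 8.28, 11.8 and 5.32 in YL (at least 27.01-fold higher), with RI1 far below the other RI arrays. Within the group, alpha-expansin 10 (Os03g21820) read 27.5, 149.9 and 104 in RI and 9.67, 11.9 and 11.9 in YL, and its call (adjusted p = 0.0396) was lost without RI2, RI3 or any single YL array. Also outside the group, a dirigent-like protein (Os07g44920), of a family that guides the coupling of phenolics, read 438, 285 and 268 in RI and 11.01, 10.5 and 11.4 in YL (at least 6.5-fold higher). A subtilisin-type protease gene (Os01g58290) read 210.1, 373 and 236 in RI and 4.36, 14.6 and 2.28 in YL (at least 5.33-fold higher).

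A cluster of proline-rich protein genes on chromosome 10 (Os10g05970, Os10g05980, Os10g05990 and Os10g06000) was bright in RI2 and RI3 and under the cutoff in RI1. Os10g05970 read 18.8, 3629 and 2478 in RI and 10.7, 18.6 and 12.2 in YL, and was not called (adjusted p = 0.0538). Os10g06000 read 9.05, 1677 and 876 in RI, against 8.23, 4.99 and 7.32 in YL, and passed at no less than 4.78-fold (adjusted p = 0.0482), a call lost without RI2, RI3 or any single YL array. Probe sets of these neighbouring, similar genes may share transcripts. A cortical cell delineating protein on the same chromosome (Os10g40510) was instead high on all RI arrays, with 1891, 831 and 1342 in RI and 10.4, 9.06 and 7.77 in YL (at least 25.9-fold higher).

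**Figure D3:**
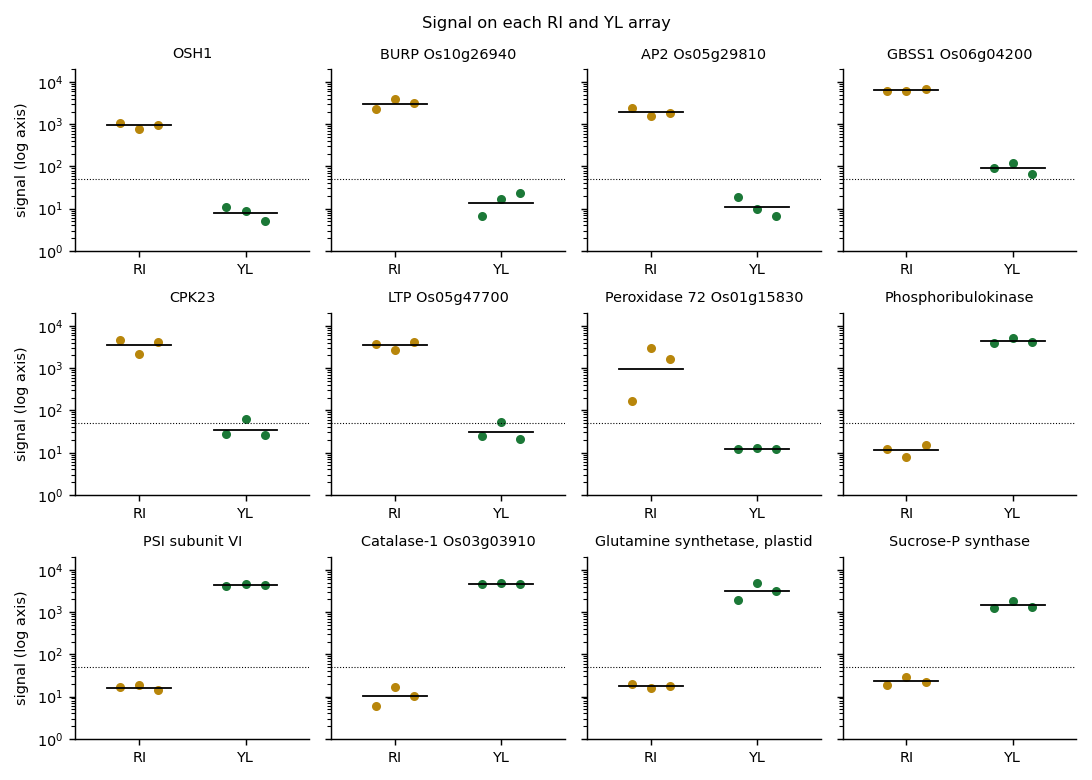
Signal (log scale) on each RI and YL array for 12 named genes, with each dot 1 array, the bar the geometric mean of 3 arrays and the dotted line the cutoff of 49.6. OSH1, the BURP domain gene, the AP2 gene and granule-bound starch synthase 1 are high in RI, while phosphoribulokinase, photosystem I subunit VI and catalase-1 are under the cutoff on every RI array, and peroxidase 72 has 1 RI array far below the other two.

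Defence proteins showed no common direction, with 3 of 11 called higher in RI (27.3%) and 2 lower (18.2%). The shares over all tested probe sets were 16.5% and 21.0%. Pathogenesis-related protein 1 (Os03g18850), a secreted protein used as a marker of defence, read 2458, 2506 and 2097 in RI and 131, 51.4 and 35.5 in YL (5.24 ± 1.11, adjusted p = 0.00203). Thionins, small antimicrobial peptides, varied between RI arrays. Os06g31960 read 29.4, 2824 and 1315 in RI and 40.1, 46.3 and 38.7 in YL and was not called. A xylanase inhibitor gene (Os11g47500) had probe sets that disagreed, 1 at least 7.48-fold higher in RI and 1 not called (-0.64 ± 0.21).

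Metal-binding proteins had 3 of 11 called higher in RI (27.3%) and 4 lower (36.4%), against 16.5% and 21.0% over all tested probe sets. As 6 of the 11 were on the YL list and 5 on the RI list, both directions follow how members were listed. A heavy metal-associated domain protein (Os08g31340) read 1392, 2083 and 1773 in RI and 33.4, 33.4 and 42.01 in YL, at least 34.8-fold higher. Another (Os10g14870) read 9.21, 15.2 and 10.8 in RI, against 879.9, 539 and 577 in YL. A type 2 metallothionein (Os01g05650), which binds metals through cysteines, differed by 0.65 ± 0.37, under the 2-fold minimum.

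Amino acid and peptide transporters counted 8 lower and 3 higher of 12, against 21.0% and 16.5% over all tested probe sets, but 6 were on the YL list and the 4 outside both lists held 2 lower and 1 higher. An amino acid permease (Os01g71710) read 8.33, 12 and 9.89 in RI and 1541, 1562 and 1021 in YL (at least 27.2-fold lower). A transmembrane amino acid transporter (Os03g60260) read 104, 139.6 and 119 in RI, against 6, 7.5 and 11.6 in YL (at least 2.42-fold higher). Among water channels, PIP2.8 (Os09g36930) was lower in RI, with 13.2, 13.2 and 153 in RI and 2664, 3526 and 1799 in YL. PIP2.2 (Os07g26630) read 39.5, 788 and 369.8 in RI and 64.2, 45.9 and 68.04 in YL, with RI1 in the leaf range, and was not called.

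Hormone genes gave few calls per group. Of 6 gibberellin probe sets, 3 were lower in RI and none higher, against 21.0% and 16.5% over all tested probe sets. Ent-kaurenoic acid oxidase 2 (Os06g0110000), an enzyme of gibberellin synthesis, read 181, 120.3 and 108 in RI and 1145, 802 and 1054 in YL (-2.90 ± 0.36). GA20OX3, named for a gibberellin 20-oxidase of a later step in the same pathway and described in the platform annotation only, was higher, with 786, 466 and 888 in RI and 74.8, 39.01 and 27.2 in YL (4.001 ± 0.39, adjusted p = 6.31e-06).

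Auxin genes counted 2 higher and 2 lower of 9 (22.2% each), near the 16.5% and 21.0% over all tested probe sets. An auxin efflux carrier family gene (Os01g69070) read 86.02, 40.7 and 126 in RI and 1518, 1455 and 1353 in YL, and auxin response factor 8 (Os04g57610), a transcription factor, read 221, 277 and 179.6 in RI and 76.3, 54.2 and 49.01 in YL. The call of auxin response factor 2 (Os12g29520, -1.30 ± 0.33) was lost without RI2. Of the cytokinin genes, an O-glucosyltransferase (Os10g09990), which conjugates the hormone, was at least 17.6-fold lower in RI, with 11.5, 23.9 and 15.7, against 739.7, 811 and 1106 in YL. A cytokinin synthase gene (Os03g59570) was called higher on signals around the cutoff, 58.98, 28.6 and 52.7 in RI and 22.9, 10.3 and 23.5 in YL, a call lost without RI1, RI3 or YL2. All 3 probe sets of the ethylene group were lower in RI, all from the YL list, and the synthase gene for 1-aminocyclopropane-1-carboxylate, the ethylene precursor (Os01g09700, -2.63 ± 0.74), lost its call without RI2. ACS1, a synthase of the same kind named in the platform annotation only, was higher, with 93.8, 116 and 128 in RI and 43.2, 43.5 and 44.2 in YL (at least 2.25-fold).

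Transcription factor families differed in their counts. Myb-like proteins had 20 of 25 probe sets lower in RI and 2 higher, helix-loop-helix proteins 8 lower and 2 higher of 13, and NAC proteins 8 lower and none higher of 11, against 21.0% lower and 16.5% higher over all tested. WRKY proteins had 3 lower and 2 higher of 6, and homeobox proteins 4 lower and 3 higher of 9. Members outside both lists counted 4 lower and 2 higher of 7 for Myb-like, 2 lower and 1 higher of 4 for helix-loop-helix, and 1 lower of 3 for NAC proteins. A subunit C-1 of the CCAAT-binding factor NF-Y (Os03g14669) was at least 34.5-fold lower, with 4.89, 3.83 and 1.12 in RI and 1174, 2097 and 2029 in YL (-9.28 ± 0.71, adjusted p = 9.02e-07). A NAC gene (Os05g34600) read 18.5, 12.7 and 9.26 in RI, against 542, 502 and 559 in YL. AP2 domain proteins had 4 higher and 6 lower of 14. All 6 lower ones stood on the YL list, and the 8 outside both lists held 4 higher and 0 lower. Most of these 4 were probe sets of 1 gene, Os01g10370. Of those, 1 read 36.97, 46.1 and 134 in RI and 25.7, 23.8 and 20.1 in YL, a call lost without RI3, YL2 or YL3. Os09g35010 of this family read 944, 35.7 and 2004 in RI and 62.7, 46.5 and 50.9 in YL, was low in RI2 only and was not called. A WRKY gene (Os03g20550) read 392, 1357 and 852 in RI and 60.5, 131 and 222 in YL (2.67 ± 0.75), a call lost without YL1.

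Protein kinases counted 42 lower and 6 higher of 63, against 21.0% and 16.5% over all tested, but the 19 outside both lists held 3 lower and 6 higher. Cytochrome P450 genes counted 15 lower and 1 higher of 19, with 1 in each direction among the 5 outside. Cell cycle and DNA replication genes were mostly under the cutoff in both tissues. They gave 2 lower (16.7%, against 21.0% over all tested) and none higher of 12, both of them kinesins. KIN14H and KIN4A, kinesins named in the platform annotation and not in this group, were called higher. MCM3 (Os05g39840), a DNA replication licensing factor, read 22.1, 22.97 and 27.2 in RI and 15.4, 16.98 and 16.6 in YL, so this mark of dividing cells was dim in both.

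Genes with a plain symbol in the platform annotation formed a group that was not drawn from the study's lists, although 11 of its probe sets stood on the YL list too. Of its 80 tested probe sets (69 genes), 16 were called higher in RI (20.0%) and 19 lower (23.8%), near the shares over all tested probe sets (16.5% and 21.0%), with a median of -0.13. The 69 probe sets outside the YL list held all 16 of those called higher and 8 called lower. CPK23, a calcium-dependent protein kinase, read 4745, 2141 and 4136 in RI, against 26.9, 61.7 and 25.6 in YL (6.64 ± 0.41, adjusted p = 1.58e-07). The kinesin KIN14H read 303, 279 and 355 in RI and 12.4, 56.7 and 13.3 in YL, and KIN4A 331, 237 and 263 in RI and 95.02, 87.4 and 47.9 in YL. XAT2 and IRX14, both named for enzymes of xylan synthesis, were higher. XAT2 read 193, 928 and 486 in RI and 59.8, 64.2 and 43.2 in YL, and IRX14 read 1199, 1186 and 1173 in RI and 338, 756 and 501 in YL (1.23 ± 0.36). IRX14 was level across the RI arrays but lost its call without YL1, whereas XAT2 was lowest in RI1. In the other direction, LPR2 read 5.45, 4.49 and 5.22 in RI and 154, 108 and 110.0 in YL, at least 2.47-fold lower in RI. LFNR1 (Os06g01850), a leaf ferredoxin-NADP reductase, read 598, 96.1 and 536 in RI, against 3013, 3231 and 2946 in YL, and was lowest in RI2.

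Set beside the other tissues, the low photosynthetic level was shared by the tips but not by SI. Averaged over its 57 probe sets, the photosystem and light-harvesting group had a mean log2 signal of 6.74 ± 0.55 in RI, 7.38 ± 0.027 in RT as labelled, 5.28 ± 0.13 in ST as labelled, 9.73 ± 0.48 in SI and 11.003 ± 0.14 in YL (SD, n = 3 each). For the Calvin cycle the means were 6.60 ± 0.20 in RI, 10.2 ± 0.31 in SI and 11.98 ± 0.18 in YL. SI lay between RI and YL in both groups, nearer to YL, and neither gap of SI was tested. Within RI the photosystem group varied, at 7.15, 6.12 and 6.95 on the 3 arrays, with RI2 lowest. The RI arrays nevertheless lay below every SI and YL array.

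**Figure D4:**
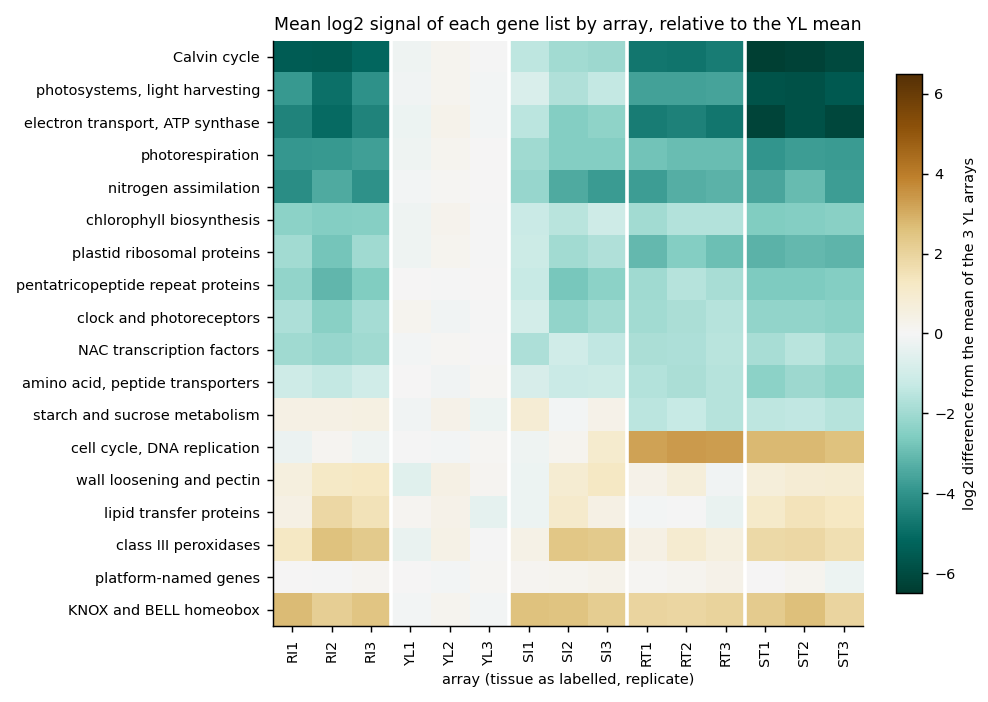
Mean log2 signal of 18 gene groups (rows) on each of the 15 arrays (columns, ordered RI, YL, SI, RT, ST), drawn relative to the mean of the 3 YL arrays. Light reaction and Calvin cycle groups are lowest in RI and the tips and intermediate in SI.

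Genes measured by several probe sets gave a check within the array. Of 1408 genes with more than 1 tested probe set, 1056 had the same outcome on all of them, and 15 had calls in opposite directions. The same outcome can be higher, lower or not called, so the 1056 include genes with no call on any probe set. The agreement to be expected from the shares of calls was not worked out.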

How the data were processed

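RNA from 15 tissue samples was hybridised to 1-colour Affymetrix rice arrays, 5 µg of total RNA each. The authors scaled the scanner signals globally in dChip and deposited 1 table of linear signal intensity, 1 column per array. Here 187 control probe sets were removed, signals below 1 were raised to 1 before the log2 transformation. limma 3.58.1 in R 4.3.3 fitted 1 mean per tissue on all 15 arrays, with the contrast RI minus YL and Benjamini-Hochberg adjustment over 21303 probe sets. The study's methods name SAM, which was not run. The fit was checked on simulated data. Array number limits precision. Named genes were the 10 largest called differences in each direction (1 probe set per gene, the brightest) whose arrays did not overlap, the 2 largest called members in each direction of each group, and starch synthesis genes. Other genes were added after their values were seen. Members and lists were chosen with earlier results of these data known. Groups for peroxisomes, BURP and proline-rich proteins, P450s, kinases, plain symbols and the AP2, Myb, helix-loop-helix and homeobox families were added after the data were seen. Alternatives covered normalization, cutoffs, filter, floor, arrays in the fit, a replicate block, array weights, an unmoderated test and leaving out each array. Tables were handled in Python 3.11.15 with pandas 2.3.3. Genome and promoter sequence were not used here.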

Additional observations from a re-analysis of the deposited data

How the results depend on the processing

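No call turned to the opposite direction under any of the 19 alternatives. Requiring a 4-fold difference left 1908 probe sets higher and 2204 lower. Leaving out 1 array gave 2896 (without RI3) to 3895 (without RI1) called higher and 4144 to 4649 called lower. Quantile normalization moved the balance to 3745 higher and 4051 lower, the unmoderated equal-variance test called 2450 and 3546, signals under the cutoff set to the cutoff gave 2658 and 3982, and array weights 4514 and 4775. Without RI2 and YL2 together, an alternative chosen after seeing the data, 3205 and 4219 were called. Deviations of same-numbered RI and YL arrays correlated at 0.032, 0.071 and -0.096, within the range of the other pairings (-0.131 to 0.134). Whether same-numbered samples shared a plant or a day cannot be told from these values. A fit on the 6 arrays with the replicate block called 3357 higher and 4271 lower. Of 94 named probe sets, 91 were called and 76 of them under every setting.

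Several group medians near 0 changed sign. Leaving out 1 array, the aquaporin median ran between -0.33 (without YL2) and 0.22 (without YL1), with 9e-04 without RI1,, the auxin median between -0.57 (without YL2) and 0.21 (without YL1) and the homeobox median between -0.024 (without RI2) and 0.54 (without RI1). With only probe sets expressed in RI or YL, the medians were -2.55 for cell cycle, -0.22 for defence and -1.42 for homeobox genes. With signals floored at the cutoff, cell cycle and homeobox medians were 0. Homeobox genes gave -0.56 at the 99th percentile cutoff and -0.19 without RI2 and YL2, where cell cycle genes gave -0.0054 instead. The aquaporin Os02g44080 ran between -0.44 (without YL3) and 0.18 (without YL1) on 1 probe set and between -0.26 (without YL2) and 0.27 (without YL1) on the other, which was also positive without RI1 (0.037) or RI3 (0.025). The causes were not tested. Signals under 49.6 carry no order, so folds of dim genes are bounds.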

Other observations

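The probe sets that set RI2 apart from RI1 also differed among the shoot internode arrays. Over 21303 probe sets, the log2 difference RI2 minus RI1 correlated with that of the mean of SI2 and SI3 minus SI1 at a Pearson r of 0.604 and a Spearman rho of 0.569, a description across genes, which are not independent replicates. Against SI3 minus SI2 the r was 0.018. The BURP and proline-rich group had mean log2 signals of 4.97, 8.77 and 8.22 on the 3 RI arrays and 3.71, 7.81 and 7.72 on the 3 SI arrays, so that 1 array of each internode lay near the leaf range.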
